A study of Homo sapiens with 6 samples.

Results

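The genes described here are 7 prostate lineage genes, FOXA1, KLK3, TMPRSS2, POU3F2, SYP, CHGA and ENO2. They were taken by name from the 25528 gene symbols of the expression table, and all 7 were listed there. Of the 7, only FOXA1 and ENO2 reached a mean of 1 TPM over the 6 samples. SYP, POU3F2, TMPRSS2 and CHGA had 46, 10, 5 and 4 reads in all samples together, and KLK3 was listed at 0 in every sample. Neither FOXA1 nor ENO2 was called changed with DOX (0 lower and 0 higher, against 2.98% and 0.0257% of all genes tested).

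The RNA-seq was done on DU-145/tet-XISTshRNA cells, a culture of the established androgen-independent prostate cancer line DU-145 that carries a doxycycline-inducible shRNA against the lncRNA XIST. There were 3 vehicle samples, given 0.1% DMSO, and 3 DOX samples, given 500 ng/ml doxycycline, each for 7 days, and all 6 carried the vector. Cells with a control shRNA and DOX were not analysed here, so effects of the drug and of the shRNA cannot be told apart. Per the labels and the study's methods, RNA came from triplicate cultures, and the study describes the replicates of its experiments in general as biologic. The p-values measure the spread between these samples.

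Androgen signaling acts on chromatin that the pioneer factor FOXA1 has opened and switches on the secretory program of luminal prostate cells, including the serine proteases KLK3 (prostate-specific antigen) and TMPRSS2. Prostate tumors that escape androgen control can take on a neuroendocrine state. That state is recognised by proteins of secretory vesicles such as chromogranin A (CHGA) and synaptophysin (SYP), by the neuronal enolase ENO2, and by neural transcription factors such as POU3F2 (BRN2).

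TPM counts transcripts after a division by gene length, out of a total of 1000000 that is the same in all samples. RN7SK, RPPH1 and the 7SL RNAs RN7SL1, RN7SL2 and RN7SL3, 5 small RNAs, held between 67.5% and 82.6% of that total, which lowers the TPM of every other gene by a different factor in each sample. Estimated reads counted on genes ranged from 5453085 in vehicle replicate 3 to 64573278 in DOX replicate 1, so that low genes were measured least finely in the former. The RNA that the shRNA targets was listed at 0 in all 6 samples, and its silencing could not be read from these values. The same was true of EIF4A1, a helicase of translation initiation in most cells, so a value of 0 is given here only as listed.

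The line was checked against markers of the cells it should and should not resemble. The simple epithelial keratins KRT8 and KRT18 had means of 79.4 and 98.1 TPM, the adhesion gene CDH1 had 9.12 TPM and EPCAM had 15.4 TPM. HOXB13, a homeobox gene of prostate epithelium, was listed at 0 in all 6 samples. The basal keratins KRT5 and KRT14 were also listed at 0. Of 11 genes of blood, endothelial and stromal cells, 0 reached 1 TPM and 4 were listed at 0. Their summed level was 0.681 to 0.870 TPM in vehicle and 0.331 to 0.490 TPM in DOX samples, and its part in the results was not tested.

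Promoter windows from RefSeq (GRCh38.p14) were found for 6 of the 7 genes, and TMPRSS2 had none. The sequences of 3 of them follow, because they set the gene listed at 0 beside the most abundant gene and one that was barely read. Each is the 250 bases before the gene's start, written 5′ to 3′ on the gene's strand, with every CG dinucleotide in capitals and, in KLK3, also the core AGAACA of an androgen response element.

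KLK3, chr19:50854665-50854914, plus strand: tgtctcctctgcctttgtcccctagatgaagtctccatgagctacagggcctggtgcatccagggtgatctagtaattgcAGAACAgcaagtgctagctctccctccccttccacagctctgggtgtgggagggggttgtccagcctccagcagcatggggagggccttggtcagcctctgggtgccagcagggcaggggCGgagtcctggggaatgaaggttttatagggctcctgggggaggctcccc

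FOXA1, chr14:37595250-37595499, minus strand: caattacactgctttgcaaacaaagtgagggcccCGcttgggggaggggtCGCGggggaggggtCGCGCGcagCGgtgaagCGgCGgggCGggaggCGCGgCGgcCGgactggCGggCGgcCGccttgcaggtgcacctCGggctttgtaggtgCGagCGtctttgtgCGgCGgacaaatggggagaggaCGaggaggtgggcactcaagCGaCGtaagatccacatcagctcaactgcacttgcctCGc

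CHGA, chr14:92922900-92923149, plus strand: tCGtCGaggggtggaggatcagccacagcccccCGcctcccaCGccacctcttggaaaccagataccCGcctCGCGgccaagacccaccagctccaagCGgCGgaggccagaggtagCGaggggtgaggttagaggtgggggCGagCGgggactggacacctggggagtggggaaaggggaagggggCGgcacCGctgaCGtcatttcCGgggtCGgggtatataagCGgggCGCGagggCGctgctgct

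The start that RefSeq gives for FOXA1, ENO2 and SYP lies inside the span that GENCODE release 44 gives to the gene, so other transcripts begin upstream of it. The KLK3 window, which runs to 50 bases after the start, held 2 CG dinucleotides, against a median of 14 over 35116 windows of the same length. The window of FOXA1 held 34 and that of ENO2 held 38, while CHGA and POU3F2 had 24 each and SYP had 35. CG-rich windows were thus found at expressed and at barely read genes alike. The motif AGAACA was found on the gene's strand of KLK3, with its first base 170 bases before the start, and on neither strand of the other 5 windows. Of all windows, 14.8% held it on either strand. The forkhead motif TGTTTAC, which 3.42% of windows held, and the split RE1 motif of the repressor REST (AGCACC, any 2 bases, GGACAG), which 0.0570% held, were in 0 of the 6 windows. A match is a description of these letters and does not show binding.

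FOXA1, a pioneer forkhead factor that opens chromatin in luminal cells, was the most abundant of the 7 genes. It lies on the minus strand of chromosome 14 of GRCh38 from 37589552 to 37596059. FOXA1 had 41.2, 49.9 and 62.1 TPM in vehicle replicates 1, 2 and 3. In DOX replicates 1, 2 and 3 it had 27.7, 34.4 and 49.0 TPM. The groups overlapped, since DOX replicate 3 lay above vehicle replicate 1. FOXA1 ranked 988 by mean TPM, above 96.1% of all gene symbols, and rested on 1105 to 12649 estimated reads per sample.

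ENO2, which encodes the enolase of neurons and neuroendocrine cells, was the other expressed gene. It lies on the plus strand of chromosome 12 from 6913745 to 6923698. ENO2 had 8.63, 8.16 and 9.45 TPM in the vehicle samples and 6.07, 6.75 and 7.67 TPM in the DOX samples, in the order of their replicate numbers. The groups of ENO2 did not overlap, with the DOX samples lower. The same held for 30.7% of the 11672 genes tested, and 0.223% had all DOX samples higher. ENO2 ranked 5581 by mean TPM, above 78.1% of gene symbols.

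SYP encodes a membrane protein of synaptic vesicles and lies on chromosome X from 49187815 to 49200218 on the minus strand. It had 0.0760, 0.155 and 0.0811 TPM in vehicle replicates 1, 2 and 3 and 0.0759, 0.0966 and 0.0323 TPM in DOX replicates 1, 2 and 3. These values stand for 4, 9 and 1 reads with vehicle and 24, 6 and 2 reads with DOX. A single read of SYP was worth 0.0811 TPM in vehicle replicate 3 but 0.00316 TPM in DOX replicate 1, so equal TPM values did not carry equal precision. The groups overlapped, and SYP was the lowest of the 7 genes with reads in all 6 samples.

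POU3F2, a POU-domain factor of neural development, lies on chromosome 6 from 98834574 to 98839458. It was listed at 0 in vehicle replicates 1 and 2 and had 0.0458 TPM, 1 read, in vehicle replicate 3. In the DOX samples it had 0.00892, 0.0182 and 0.0182 TPM, from 5, 2 and 2 reads. All 3 DOX samples and 1 vehicle sample therefore had a read. Pooled by group, POU3F2 had 0.235 reads per 10000000 with vehicle (95% exact Poisson interval 0.00596 to 1.31) and 0.891 with DOX (0.408 to 1.69), and the intervals overlapped. Intervals and limits from reads cover counting error only.

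TMPRSS2, a membrane serine protease that androgens induce in luminal cells, lies on chromosome 21 from 41464300 to 41531116. It had 0.0134 TPM in vehicle replicate 1, 0.0366 TPM in vehicle replicate 2 and 0.0114 TPM in DOX replicate 2, and it was listed at 0 in the other samples. The reads behind these values were 1, 3 and 1. Pooled, TMPRSS2 had 0.941 reads per 10000000 with vehicle (95% exact Poisson interval 0.256 to 2.41) and 0.0990 with DOX (0.00251 to 0.552). The intervals overlapped, and 8.53% of the exonic bases of TMPRSS2 lie opposite exons of MX1, so that a few stray reads cannot be assigned with certainty.

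CHGA, a granule protein of neuroendocrine cells, lies on chromosome 14 from 92923150 to 92935285. It was listed at 0 in all 3 vehicle samples and in DOX replicate 3, and had 0.00356 and 0.0182 TPM in DOX replicates 1 and 2, from 2 reads each. The absence of reads among 42508823 with vehicle allows up to 0.706 reads per 10000000 by a limit of 3 reads, and up to 0.868 by the 95% exact Poisson interval. The DOX samples together had 0.396 (95% exact Poisson interval 0.108 to 1.01), and a difference was not detectable at this depth.

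KLK3, the gene of prostate-specific antigen, lies on chromosome 19 from 50854915 to 50860764 on the plus strand and was listed at 0 in all 6 samples. None of its exonic bases (0%) overlaps an exon of another gene in GENCODE release 44. Of the other genes listed at 0, EIF4A1 shares 47.4% of its exonic bases with genes on its strand, and XIST shares 1.43%. With genes on the opposite strand, XIST shares 30.02% of its exonic bases and EIF4A1 shares 0%. Why these genes were listed at 0 was not tested. The 7 genes thus fell in the order FOXA1, ENO2, SYP, POU3F2, TMPRSS2, CHGA and KLK3 by mean TPM. FOXA1 was above ENO2 and ENO2 above SYP in 6 of 6 samples, with no overlap of their ranges. SYP was above POU3F2 in 6 of 6 samples as well, but their ranges overlapped, and those of POU3F2, TMPRSS2, CHGA and KLK3 overlapped too.

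**Figure D1:**
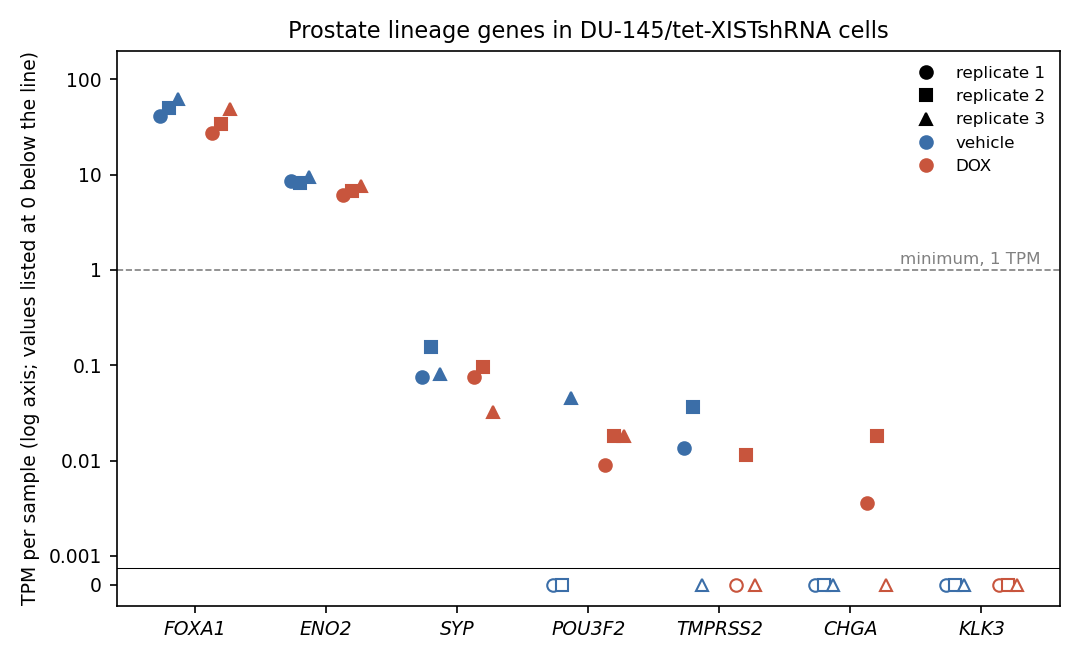
TPM of the 7 lineage genes in each sample on a log axis, vehicle in blue and DOX in red, with circles, squares and triangles for replicates 1, 2 and 3 and open symbols under the line for values listed at 0. FOXA1 lies between 27.7 and 62.1 TPM and ENO2 between 6.07 and 9.45 TPM, and the other 5 genes lie at or under 0.155 TPM.

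To determine whether the lineage genes responded to DOX, the groups were compared by limma on log2(TPM + 1) over all 11672 genes with a mean of at least 1 TPM. Calls required a Benjamini-Hochberg adjusted p-value below 0.05 together with a change of more than 1.5-fold. The mean of FOXA1 was 51.1 ± 10.5 TPM in vehicle and 37.0 ± 10.9 TPM in DOX samples (SD, n = 3 per group). On the log2 scale this was a change of -0.47 (SE, standard error, 0.28, 95% interval -1.04 to 0.09, limma adjusted p = 0.237). The mean of ENO2 was 8.74 ± 0.654 TPM in vehicle and 6.83 ± 0.803 TPM in DOX samples (SD, n = 3 per group). On the log2 scale this was a change of -0.32 (SE 0.24, 95% interval -0.80 to 0.16, limma adjusted p = 0.337). In this fit, 2.98% of all genes were called lower and 0.0257% higher. In these bulk samples, fewer cells expressing a gene and less RNA per cell cannot be told apart.

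The changes of FOXA1 and ENO2 differed from that of the median gene by less than their standard errors. Over the genes tested, log2 fold changes had a median of -0.35, and 93.1% were negative. When the 5 small RNAs were left out and TPM was set to 1000000 again, that median was -0.07, FOXA1 had a log2 fold change of -0.13 (limma adjusted p = 0.721) and ENO2 of 0.00 (limma adjusted p = 0.994). Median-of-ratios scaling divides each sample by its typical ratio to the mean of all samples, and it moved the median gene to 0.02. On that scale the vehicle and DOX means of FOXA1 were 42.7 ± 3.06 and 42.2 ± 9.46 TPM, and those of ENO2 were 7.42 ± 0.762 and 7.90 ± 1.06 TPM (SD, n = 3). The log2 fold change of FOXA1 was then -0.04 (95% interval -0.40 to 0.32, limma adjusted p = 0.918). That of ENO2 turned to 0.08 (95% interval -0.23 to 0.39, limma adjusted p = 0.784). With a correction for GC content and length, which brought the median gene to 0.01, FOXA1 had -0.19 (limma adjusted p = 0.657) and ENO2 had -0.13 (limma adjusted p = 0.624). After median-of-ratios scaling the groups overlapped for both genes, while 9.15% of genes had all DOX samples below all vehicle samples and 10.9% had them above. For FOXA1, DOX replicate 3 held the highest and DOX replicate 2 the lowest scaled value of the 6 samples.

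**Figure D2:**
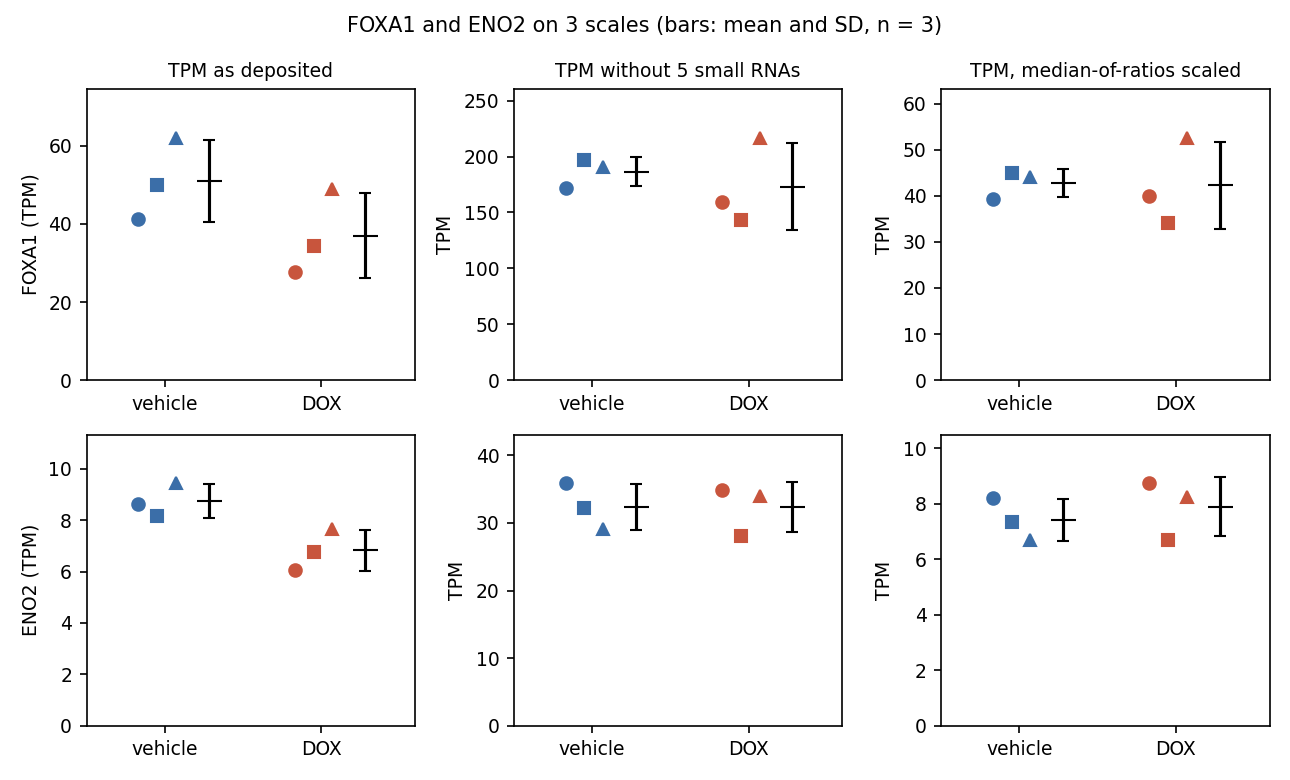
FOXA1 (upper row) and ENO2 (lower row) in each sample as TPM as deposited, as TPM without the 5 small RNAs and as TPM after median-of-ratios scaling, with vehicle in blue, DOX in red, circles, squares and triangles for replicates 1, 2 and 3, and bars for the mean and SD (n = 3). The group means of FOXA1 differ by 51.1 against 37.0 TPM as deposited and by 42.7 against 42.2 TPM after scaling.

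A ratio of 2 genes within a sample is the same for TPM as deposited, without the small RNAs and after median-of-ratios scaling, since each multiplies a sample by 1 factor, but not after GC and length correction. The ratio of FOXA1 to ENO2 was 4.78, 6.12 and 6.58 in the vehicle samples and 4.57, 5.09 and 6.38 in the DOX samples, with p = 0.6 (exact permutation test, two-sided, for which 0.1 is the lowest p with these group sizes). The ratio of ENO2 to its ubiquitous relative ENO1 was 0.0420, 0.0480 and 0.0446 with vehicle and 0.0348, 0.0356 and 0.0428 with DOX (p = 0.2, exact permutation test). For this ratio 2 of 3 DOX samples lay below all vehicle samples. The ratio of FOXA1 to KRT8 was 0.501, 0.833 and 0.710 with vehicle and 0.344, 0.377 and 0.653 with DOX (p = 0.2, exact permutation test). These 3 are from 6 ratios computed, none of which can pass 0.05 with 3 samples against 3.

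**Figure D3:**
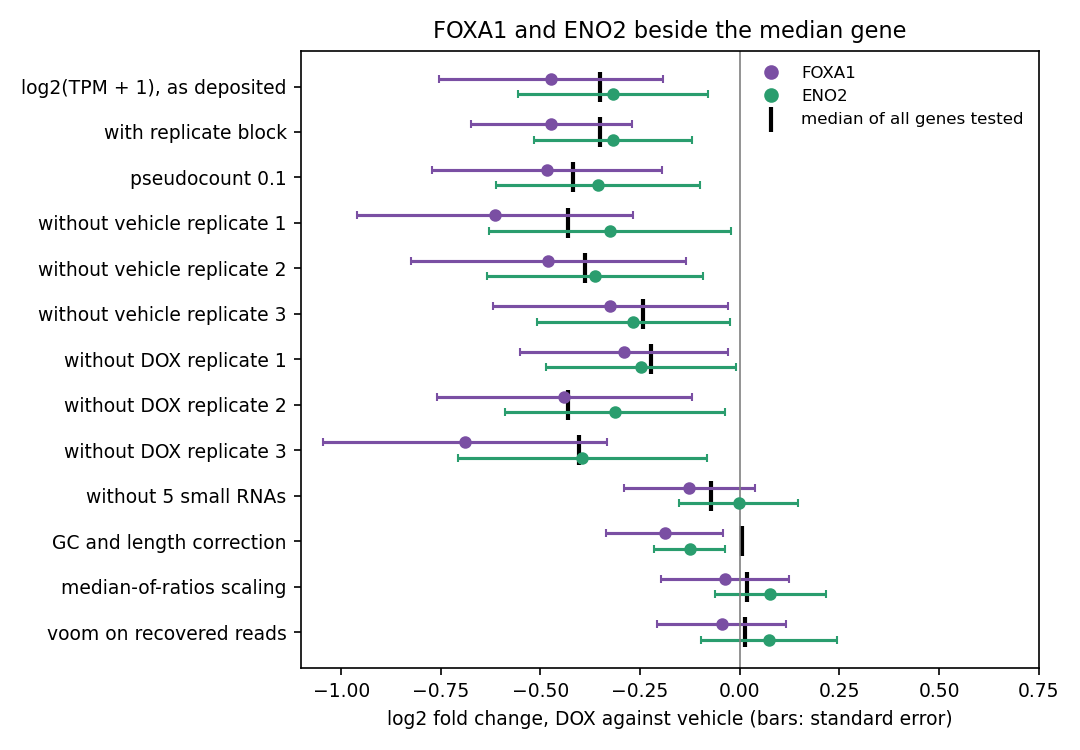
Log2 fold change of FOXA1 (purple) and ENO2 (green) for DOX against vehicle under 13 ways of fitting, with bars for the standard error and a black tick for the median of all genes tested. FOXA1 ranges from -0.69 to -0.04 and ENO2 from -0.39 to 0.08, and the median gene lies within the bars of both except under GC and length correction, where both genes are lower than it.

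The 4 genes with reads but under 1 TPM were compared by the difference of mean log2(TPM + 1), DOX minus vehicle. By two-sided exact permutation tests the difference was -0.05 for SYP (p = 0.4), -0.02 for TMPRSS2 (p = 0.4), 0.01 for CHGA (p = 0.4) and 9.6e-05 for POU3F2 (p = 1). The groups overlapped for all 4 genes. SYP, the only one of them with more than 10 reads in total, had 3.29 reads per 10000000 with vehicle (95% exact Poisson interval 1.801 to 5.53) and 3.17 with DOX (2.17 to 4.47).

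The families of the 7 genes showed which relatives the cells expressed. Of 26 relatives, 7 reached 1 TPM and 4 were listed at 0. ENO1, the glycolytic enolase of most tissues, had 188 TPM, against 7.79 TPM for ENO2, and the muscle enolase ENO3 had 2.29 TPM. The synaptophysin relatives SYPL1 and SYNGR2, found on vesicles of many cell types, had 73.2 and 25.4 TPM, against 0.0862 TPM for SYP. FOXA2 and FOXA3, the forkhead factors of endoderm and liver, had 0.251 and 0.259 TPM, so FOXA1 was the prevailing member of its group. Beside KLK3, the prostate kallikreins KLK2 and KLK4 had 3 and 6 reads in all samples together. Among the listed kallikreins, which are not the whole family, KLK1 had the highest mean with 0.0390 TPM, followed by KLK10 with 0.0163 TPM. The membrane protease ST14 had 2.23 TPM and TMPRSS3 had 0.0559 TPM. Of the POU factors among these relatives, the widely expressed POU2F1 had 6.17 TPM and POU2F2 had 0.0220 TPM. POU4F1 and POU2F3, held in the list of neuroendocrine factors below, had 0.624 and 0.0707 TPM. The chromogranin CHGB was listed at 0. None of the 7 relatives tested was called (0 lower and 0 higher, against 2.98% and 0.0257% of all genes), and their median log2 fold change was -0.44.

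A list of 15 steroid receptor, partner and coregulator genes had 11 members at or above 1 TPM. HOXB13 was listed at 0, as given above, and GRHL2, an epithelial transcription factor, had 0.00812 TPM. NR3C1, the glucocorticoid receptor, was the most abundant with 37.4 TPM, followed by the Mediator subunit MED1 with 32.0 TPM. In the vehicle samples NR3C1 had 38.6, 49.5 and 55.0 TPM and in the DOX samples 19.1, 32.6 and 29.8 TPM. The groups did not overlap, and its log2 fold change of -0.81 had an adjusted p of 0.0703 from limma. After median-of-ratios scaling it had -0.38 (limma adjusted p = 0.281). None of the 11 genes was called (0 lower and 0 higher, against 2.98% and 0.0257% of all genes), and 3 were called lower in the fit with a replicate block, against 19.0%. Their median log2 fold change was -0.49, beside -0.35 for all genes, or -0.06 beside 0.02 after median-of-ratios scaling.

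Of 21 other androgen-regulated and secretory prostate genes found in the table, 12 reached 1 TPM and 3 were listed at 0. NDRG1, a stress and androgen-induced gene, had 24.1 TPM and ZBTB10, a zinc finger gene, had 17.8 TPM. ZBTB10 fell from 19.7, 24.9 and 29.8 TPM with vehicle to 7.53, 12.8 and 12.2 TPM with DOX, without overlap, and had a log2 fold change of -1.14 (SE 0.27, limma adjusted p = 0.0245). STEAP2, a metalloreductase of prostate epithelium, fell from 8.40, 11.2 and 12.8 TPM to 3.35, 7.43 and 5.89 TPM, with a log2 fold change of -0.88 (SE 0.26, limma adjusted p = 0.0497). These 2 were the calls among the 12 genes, against 2.98% of all genes called lower, and in the fit with a replicate block 5 were called lower, against 19.0%. The list's median was -0.50, or -0.09 after median-of-ratios scaling, where ZBTB10 had -0.72 (adjusted p = 0.262) and STEAP2 had -0.50 (limma adjusted p = 0.280).

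Luminal epithelial genes were the best represented, with 10 of 11 at or above 1 TPM. CD24, a surface glycoprotein of luminal cells, had 163 TPM and was the most abundant, and KRT18 had 98.1 TPM. CD24 had 173, 223 and 237 TPM with vehicle and 91.0, 100.2 and 156 TPM with DOX, without overlap, as for 30.7% of all genes, and its log2 fold change of -0.89 had an adjusted p of 0.0568 from limma. After median-of-ratios scaling the groups of CD24 overlapped and the change was -0.44 (limma adjusted p = 0.296). KRT19, another simple keratin, had 67.3, 48.9 and 89.0 TPM with vehicle and 77.1, 73.0 and 73.7 TPM with DOX, with a log2 fold change of 0.17 (limma adjusted p = 0.670). After median-of-ratios scaling its groups no longer overlapped, as for 10.9% of all genes in that direction, and the change was 0.61 (limma adjusted p = 0.280). None of the 10 was called (0 lower and 0 higher, against 2.98% and 0.0257% of all genes). In the fit with a replicate block, 4 were called lower (CD24, CDH1, DPP4 and EPCAM), against 19.0% of all genes. Of 9 basal genes, 3 reached 1 TPM, namely the linker DST, the hyaluronan receptor CD44 and the integrin ITGA6. TP63, the defining transcription factor of basal cells, had 0.0112 TPM. DST fell from 45.9, 50.8 and 59.8 TPM with vehicle to 14.1, 45.0 and 20.7 TPM with DOX. Its log2 fold change was -1.097 (SE 0.30, limma adjusted p = 0.0451), and DOX replicate 2 lay close to the vehicle samples. After median-of-ratios scaling the groups of DST overlapped and the change was -0.67 (limma adjusted p = 0.281). It was the only call among the 3 genes, against 2.98% of all genes called lower.

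Of 18 neuroendocrine marker genes other than SYP, CHGA and ENO2, 4 reached 1 TPM and 8 were listed at 0. UCHL1, a neuronal deubiquitinase used as a neuroendocrine marker, had 660 TPM and exceeded every other gene of the lineage lists. It had 608, 590.5 and 960.0 TPM with vehicle and 529, 648 and 622 TPM with DOX, and the groups overlapped (log2 fold change -0.23, limma adjusted p = 0.497). The sign of UCHL1 turned to 0.22 after median-of-ratios scaling and to 0.13 without the small RNAs. CPE, a prohormone-processing enzyme, had 3.99 TPM. SYT1, a calcium sensor of vesicle release, fell from 3.62, 4.12 and 5.38 TPM to 1.19, 2.84 and 2.58 TPM, with a log2 fold change of -0.78 (SE 0.23, limma adjusted p = 0.0497), or -0.45 (adjusted p = 0.281) after median-of-ratios scaling. It was the only call among the 4 genes, against 2.98% of all genes called lower.

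Of 15 neuroendocrine transcription and splicing factors, 4 reached 1 TPM and 6 were listed at 0, INSM1 among them. NKX2-1, a homeobox factor of lung and thyroid that small-cell carcinomas often express, was the most abundant with 37.0 TPM, followed by the mitotic kinase AURKA with 35.8 TPM. NKX2-1 had 37.1, 36.5 and 52.8 TPM with vehicle and 29.6, 30.3 and 35.8 TPM with DOX, and its log2 fold change was -0.37 (limma adjusted p = 0.325), or 0.06 after median-of-ratios scaling and -0.03 without the small RNAs. NKX2-1 lies on chromosome 14 from 36516392 to 36521149, 1.07 megabases from FOXA1, and 32.6% of its exonic bases are shared with another gene on its strand. None of the 4 was called (0 lower and 0 higher, against 2.98% and 0.0257% of all genes).

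REST, a repressor that holds neuronal genes such as SYP and CHGA silent outside neurons, and its cofactors were mostly expressed, with 7 of 9 genes at or above 1 TPM. REST had 14.8, 18.9 and 21.9 TPM with vehicle and 5.92, 14.8 and 9.48 TPM with DOX, and DOX replicate 2 lay just below the lowest vehicle sample. Its log2 fold change was -0.88 (limma adjusted p = 0.0568), or -0.47 after median-of-ratios scaling, where the groups overlapped. The deacetylase HDAC1 and the demethylase KDM1A had 38.68 and 25.5 TPM. None of the 7 was called (0 lower and 0 higher, against 2.98% and 0.0257% of all genes), and REST and RCOR3, a corepressor, were called lower in the fit with a replicate block, against 19.0% of all genes.

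**Figure D4:**
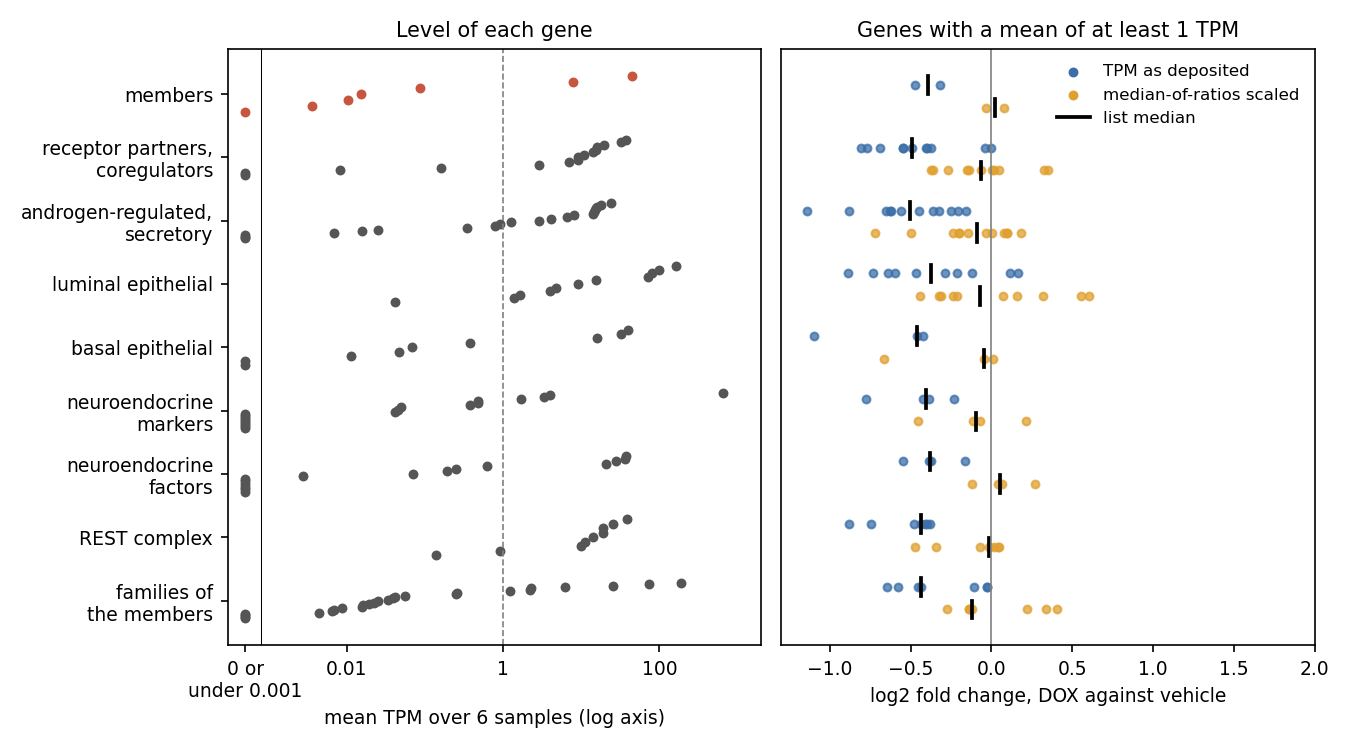
Left, mean TPM over the 6 samples of each gene in the lineage lists on a log axis, with genes listed at 0 or under 0.001 left of the line and the 7 lineage genes in red. Right, log2 fold changes of the genes with a mean of at least 1 TPM, from TPM as deposited (blue) and after median-of-ratios scaling (yellow), with black ticks for list medians. Medians as deposited lie from -0.50 to -0.38, and scaled medians from -0.12 to 0.05.

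Counted once each, the lineage lists beside the 7 genes held 119 genes, of which 24 were listed at 0 and 58 were tested. The median log2 fold change of the 58 was -0.44, beside -0.35 for all genes, and 56 of them were negative. The 4 called lower were DST, STEAP2, SYT1 and ZBTB10, which is 6.90% of the 58 against 2.98% of all genes. The lists were chosen with earlier results of these data known, so the shares in this paragraph are descriptions and cannot show enrichment. None was called higher by limma (0). With the p-value left unadjusted and the same 1.5-fold limit, 17 were lower and 0 higher, against 2215 and 14 of all 11672 genes. The calls depended on single samples: ZBTB10 alone was called without DOX replicate 1 and without DOX replicate 3, 0 were called without vehicle replicate 2 or 3, 7 without vehicle replicate 1 and 11 without DOX replicate 2. The share of all genes called in these fits is not given here. By unadjusted p-values with the same fold limit, lower genes ran from 641 of 11801 without DOX replicate 1 to 3562 of 11696 without DOX replicate 2. With replicate numbers as a block, 17 of the 58 were called lower (29.3%, against 19.0% of all genes) and 0 higher (against 0.129%), and the former included REST, NR3C1, CD24 and all 4 named above, and FOXA1 had an adjusted p of 0.0541 and ENO2 of 0.186 from limma. After median-of-ratios scaling, 0 of the 58 were called by limma, as were 0.0% of all genes. On that scale, with the p-value left unadjusted and the same fold limit, 2 were lower and 1 higher, against 133 and 137 of all 11595 genes. By voom on the recovered reads with the replicate block, DST, SYT1 and ZBTB10 were called lower and KRT19 higher, against 2.34% and 1.38% of all genes.

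The genes whose pattern over the 6 samples was most like that of FOXA1, by Pearson's correlation of log2(TPM + 1) after median-of-ratios scaling among 11594 genes, were BICRAL (r = 0.994) and C12ORF49 (r = 0.991). Those most like ENO2 were MMP17 (r = 0.993) and TMEM164 (r = 0.992). The 6 points share their libraries, and correlations over 0.9 were reached by 117 genes for FOXA1 and 261 for ENO2.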

How the data were processed

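RNA-seq of 3 vehicle and 3 DOX samples was analysed, with groups and replicate numbers from the labels and days of treatment from the study's methods. The authors prepared stranded mRNA libraries, aligned reads with STAR to GRCh38 and deposited TPM per gene symbol. The counting tool, its strand setting and the handling of reads that match several places are not given in the sources used here. The authors' mean normalized count per gene from DESeq2, a signal averaged over all samples, was also used. Their fold changes, errors, Wald scores and p-values were not used.

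Reads per gene were estimated from TPM and this mean. Of 30966 values under 50 reads, 97.9% came out whole within 0.05, against 10% for values spread evenly. The scale of each sample had been tuned so that reads came out whole, partly on the same values, so this share is not an independent check. Tests used limma 3.58.1 (R 4.3.3) with a variance trend and no block, a pseudocount of 1 and a minimum mean of 1 TPM, or exact permutation tests (SciPy 1.17.1) below it. Steps were tested on simulated data. Pairing by replicate number is an assumption of the fits with a replicate block, since the labels give numbers only. Deviations from group means of same-numbered samples correlated with r = 0.57, 0.24 and 0.21 for replicates 1, 2 and 3. Samples with different numbers were not compared, so these values cannot show pairing. No pair of samples was identical (0 pairs). Positions come from GENCODE release 44, whose longest transcripts gave GC content and length for 87.2% of symbols. The 7 genes and all lists were chosen with earlier results of these data known. Named are these 7, list genes that were called, the 2 most abundant genes of each list and family and the 2 genes most correlated with FOXA1 and with ENO2. HOXB13, GRHL2, KLK2, KLK4, KRT5, KRT8, KRT14, KRT19, CDH1, EPCAM, DPP4, RCOR3, TP63, ITGA6, CHGB, INSM1, POU4F1, POU2F3, REST and EIF4A1 were named beyond these for their roles, after their values were seen. Some listed genes are not reported here.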

Additional observations from a re-analysis of the deposited data

How the results depend on the processing

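The number of the 7 lineage genes called stayed at 0 in both directions in all 16 alternatives, and the number expressed stayed at 2 in all 10. The log2 fold change of FOXA1 was negative in all 16, between -0.69 and -0.04, with adjusted p-values of 0.0541 to 0.918. That of ENO2 turned positive with median-of-ratios scaling (0.0770, with and without the replicate block) and with voom on recovered reads (0.0722, and 0.0479 with the replicate block), and its adjusted p-values ran from 0.186 to 0.994. Of the other lineage genes, 4 were called lower, 17 with the replicate block, and 0 with median-of-ratios scaling, with that scaling and the block, without the small RNAs, with a pseudocount of 0.1, with no minimum, with GC and length correction, with that correction and the block, and with voom without a block. Voom with the replicate block called 1 higher. The number of all genes called is given below for the replicate block, voom with it, median-of-ratios scaling and the fit without the small RNAs. For the other fits named it is not given here, so their 0 cannot be read as a result about these genes. Leaving out 1 sample gave 0 to 11 lower calls: 0 without vehicle replicate 2 or 3, 1 without DOX replicate 1 or 3, 7 without vehicle replicate 1 and 11 without DOX replicate 2. The cause of this dependence on samples was not tested, and the share of all genes called in these fits is not given here. The difference of POU3F2 changed sign when samples were left out, between -0.0107 and 0.0216. SYP and TMPRSS2 kept their direction in all 9 alternatives each, TMPRSS2 on 5 reads. CHGA also did, but it was listed at 0 in all 3 vehicle samples, so its difference could not turn negative. Voom, GC and length correction, scaling with the block and the ratios within samples were chosen after seeing the data. Of all genes, 348 were called lower and 3 higher, against 2217 and 15 with the replicate block, 273 and 161 with voom and the block, and 0 in both directions with median-of-ratios scaling (133 and 137 if p-values were not adjusted) or without the small RNAs (661 and 164). The block changed no call of the 7 genes. Depth limits SYP, POU3F2, TMPRSS2 and CHGA, with 46, 10, 5 and 4 reads in all.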
